A study of Mus musculus with 20 samples.

Results

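The genes described here are 10 members of the pathway that annotation libraries call LPS/IL-1 mediated inhibition of RXR function, limited to its nuclear receptors and lipid enzymes and transporters, together with Alas1 of heme synthesis. They are Rxra, Nr1h3, Abca1, Abcg1, Acsbg1, Acsl1, Acsl5, Cpt1a, Cpt2 and Alas1. On the mouse array, 16 of 39429 non-control probes carried the name of one of these 10 genes, out of 31093 gene names in all, and every probe is described singly. Acsbg1, Alas1 and Cpt2 were taken as chosen from the measured difference between unirradiated Il10-/- and unirradiated WT blood, and the other 7 genes for their place in the pathway. Values of the unirradiated genotype comparison are therefore given as a description, without a test.

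Whole blood of young adult male mice was profiled in 4 groups of 5 arrays, made of WT C57BL/6 mice and Il10-/- littermates (B6.129P2-Il10tm1Cgn/J, from crosses of heterozygotes) given sham exposure (0 Gy) or 7 Gy of whole-body X-rays. All the animals were killed 24 h later, and blood from the heart was lysed in PAXgene solution, depleted of globin RNA and hybridized with Cy3 on 1-colour Agilent arrays. Il10-/- mice lack a functional form of the anti-inflammatory cytokine interleukin-10 in every cell, so that differences between genotypes are not limited to one blood cell type. A signal is given throughout as log2 of the processed spot intensity minus the array median over the 39429 probes, so that 0 is the median probe of an array and a difference of 1 is a doubling. In whole blood, fewer cells of a type and less RNA per cell cannot be told apart. Levels of different probes are not comparable with each other.

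Retinoid X receptor alpha (Rxra) pairs with other nuclear receptors, among them liver X receptor alpha (LXR, encoded by Nr1h3) and the PPAR fatty acid receptors, and the pairs switch on genes of sterol export and fatty acid oxidation. During the acute-phase response, lipopolysaccharide (LPS) and interleukin-1 signal through Myd88 and the Jnk kinases, and in liver this signalling is known to lower the activity of RXR pairs and of their lipid and bile acid targets. In blood, monocytes and neutrophils carry LXR and export cholesterol through Abca1 and Abcg1, while fatty acid oxidation is prominent in liver and heart muscle.

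Features of the arrays bear on every value. The Il10 probe A_51_P430766 was well above background on 10 of 10 arrays labelled Il10-/- (2.75 ± 0.31 at 0 Gy and 2.71 ± 0.62 at 7 Gy, SD, n = 5) and on 0 of 10 labelled WT. Where this probe lies relative to the altered part of the gene was not analysed here, so the direction of each genotype difference rests on the labels. Replicates 1 and 2 were the most alike arrays in every group, with a robust SD of their differences of 0.230 to 0.336 against 0.407 to 1.39 in the other 36 pairs, and counts of calls among members and list genes are also given with these averaged (n = 4) where they change. Each slide held the arrays of 1 replicate number, so a direction seen on 5 of 5 slides is a description and not 5 independent agreements. Replicate 5 of unirradiated WT was the weakest array, with 29.9% of spots well above background against 34.6 to 57.8% on the other 19. Markers of liver and heart muscle also varied between arrays. The mean of 21 hepatocyte markers (Alb, Fgg, Hpx and others) ranged from 0.36 to 1.59 in unirradiated WT and from 2.25 to 10.61 in irradiated WT. It ranged from 1.75 to 8.87 in unirradiated Il10-/- and from 1.49 to 8.84 in irradiated Il10-/- samples. The mean of 11 heart muscle markers reached 1.85, 6.02, 2.39 and 5.81 in the same order, and Alb, the albumin gene, was well above background on 2, 5, 5 and 4 of 5 arrays. The mean of 11 neutrophil markers lay between 4.30 and 5.74 in unirradiated and between 4.61 and 5.26 in irradiated WT. In Il10-/- mice it lay between 6.84 and 9.16 (median 8.31) without and between 5.62 and 7.92 (median 6.12) with irradiation.

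The 3′ ends of 4 member probes are shown because Alas1 is the gene whose probes disagreed, and because 3 member probes contain the polyadenylation signal AATAAA, at which transcripts can end. Each line gives the last 30 bases of the probe as the array files list it, 5′ to 3′ along the transcript, with the signal in capitals.
Alas1 upstream, A_55_P2083649, chr9:106136284-106136313 (mm9, minus strand): agaattgtctttatatgtgaAATAAAttat
Alas1 downstream, A_55_P1959985, chr9:106135796-106135825 (mm9, minus strand): tgtatttgggtcttgctctttttatacaat
Cpt2, A_55_P2033650, chr4:107576591-107576620 (mm9, minus strand): tgtttaaatagaAATAAAcccagtgttgct
Nr1h3, A_66_P120249, chr2:91024250-91024279 (mm9, minus strand): acccaaccaAATAAActagccaggagagcc
The share of member probes with the signal was 18.8%, against 12.6% (4965) of all 39429 probes. The Alas1 probes lie 488 bases apart, and the 60 bases of the downstream one hold no AATAAA. Such a match is a description of the letters and does not place a transcript end.

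Promoter windows were searched for the half-site AGGTCA, which RXR pairs bind, on both strands of 300 bases (250 before and 50 after the gene start, RefSeq, GRCm38.p6). The search covered 13 windows of 9 members, Abcg1 having none in the table. The half-site was found in 2 of 13 member windows (15.4%) against 5340 of 32851 windows of all genes (16.3%). The matches lie in Rxra and Cpt1a and are printed on the strand of the gene, with the half-site or its opposite-strand form TGACCT in capitals.
Rxra, chr2:27709232-27709261: gggtggcaggaaAGGTCAgtcactctctgt
Rxra, chr2:27709193-27709222: tagaaatgggtgTGACCTgagtaatggtca
Cpt1a, chr19:3323195-3323224: cagtttccttacTGACCTcctccccgcagc
Direct repeats of the half-site with a gap of 1 base (DR1, the spacing known for PPAR pairs) or of 4 bases (DR4, the spacing known for LXR pairs) were in 0 member windows. Among all windows they were in 0.0396% and 0.0152%, so these letters are rare at such distances from a start in any gene.

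**Figure D1:**
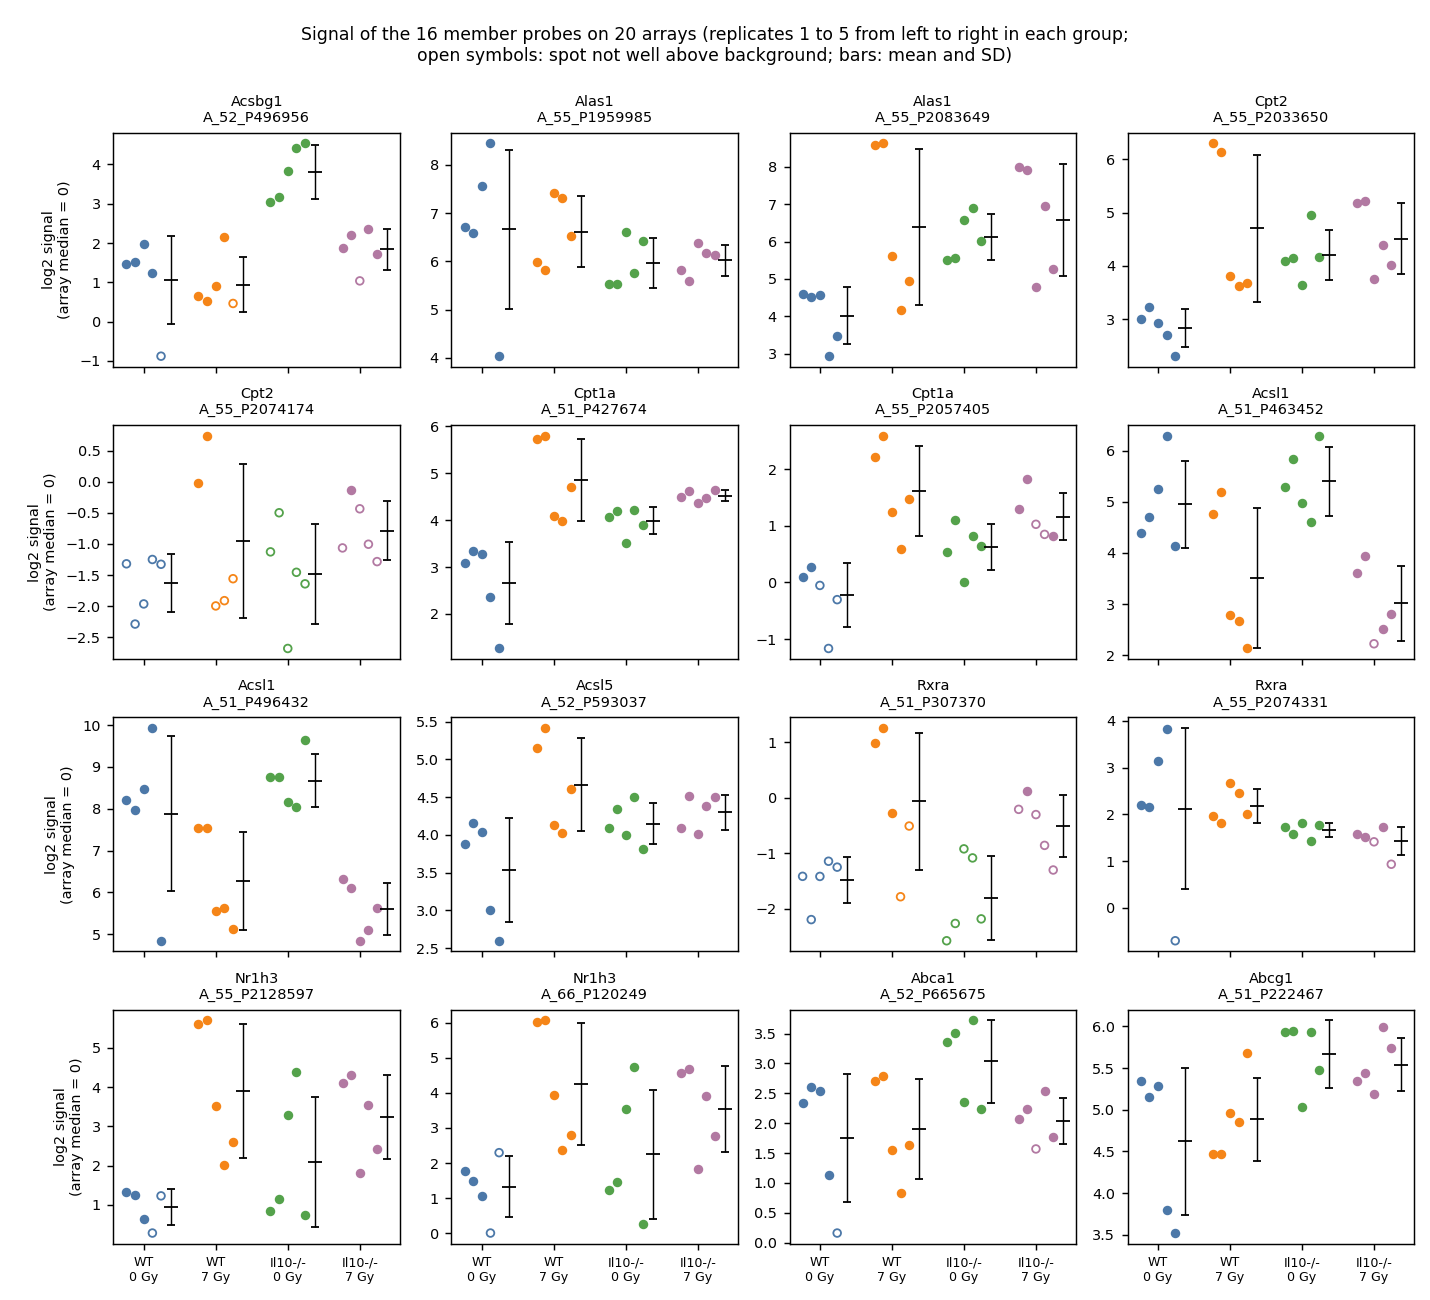
Log2 signal relative to the array median (y axis) of each of the 16 member probes on the 20 arrays, by group (x axis), replicates 1 to 5 from left to right. Bars give the mean and SD of 5 arrays and open symbols mark spots not well above background. Acsbg1 was highest in unirradiated Il10-/- mice (3.05 to 4.54), both Nr1h3 probes were highest on replicates 1 and 2 of irradiated WT, and both Acsl1 probes were low on all 5 irradiated Il10-/- arrays. At the brighter Acsl1 probe, replicates 3 to 5 of irradiated WT (5.12 to 5.63) lay within the irradiated Il10-/- range (4.84 to 6.32).

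Among the receptors, Nr1h3 rose after irradiation in WT and Rxra did not pass the test in any comparison. Nr1h3 encodes the oxysterol receptor LXR alpha. Its probe A_55_P2128597 (chr2:91024345-91024404) read 1.34, 1.24, 0.65, 0.28 and 1.23 in unirradiated WT and 5.62, 5.70, 3.53, 2.01 and 2.60 in irradiated WT. In Il10-/- mice it read 0.85, 1.15, 3.30, 4.38 and 0.75 without irradiation and 4.10, 4.31, 1.82, 3.54 and 2.42 with it. Every irradiated WT array lay above every unirradiated one, whereas in Il10-/- mice replicates 3 and 4 were already high without irradiation and the groups overlapped. The WT rise was 2.94 ± 0.64 (SE) on the log2 scale, or 7.70-fold (limma, Benjamini-Hochberg adjusted p = 0.00719, higher on 5 of 5 slides). The second probe, A_66_P120249 (chr2:91024250-91024309), rose by 2.91 ± 0.69 (adjusted p = 0.0114). In Il10-/- mice the differences were 1.15 ± 0.73 and 1.30 ± 0.81 (adjusted p = 0.285 and 0.275). The limma test of the difference between the genotypes' responses gave -1.79 ± 1.04 and -1.61 ± 1.14 (adjusted p = 0.690 and 0.729). The Nr1h3 rise was therefore not shown to be particular to WT.

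The arrays with a high Nr1h3 signal were those with a high hepatocyte signal. Across the 20 arrays, deviations of the 2 Nr1h3 probes from their group means went with those of the hepatocyte list (r = 0.96 and 0.92, rho = 0.97 and 0.92, r = 0.96 and 0.91 without the 2 arrays farthest out). These arrays share their RNA preparation, labelling and scaling, and the correlation is a description. With the hepatocyte and heart muscle means as covariates, the WT difference of Nr1h3 was 0.39 ± 1.07 for the first probe and -0.07 ± 1.22 for the second, neither called. That fit called 5 of 18587 features in WT, where the hepatocyte mean did not overlap between doses (0.36 to 1.59 against 2.25 to 10.61). It therefore cannot separate dose from hepatocyte signal. The 2 probes deviated together (r = 0.98 over 20 arrays).

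**Figure D2:**
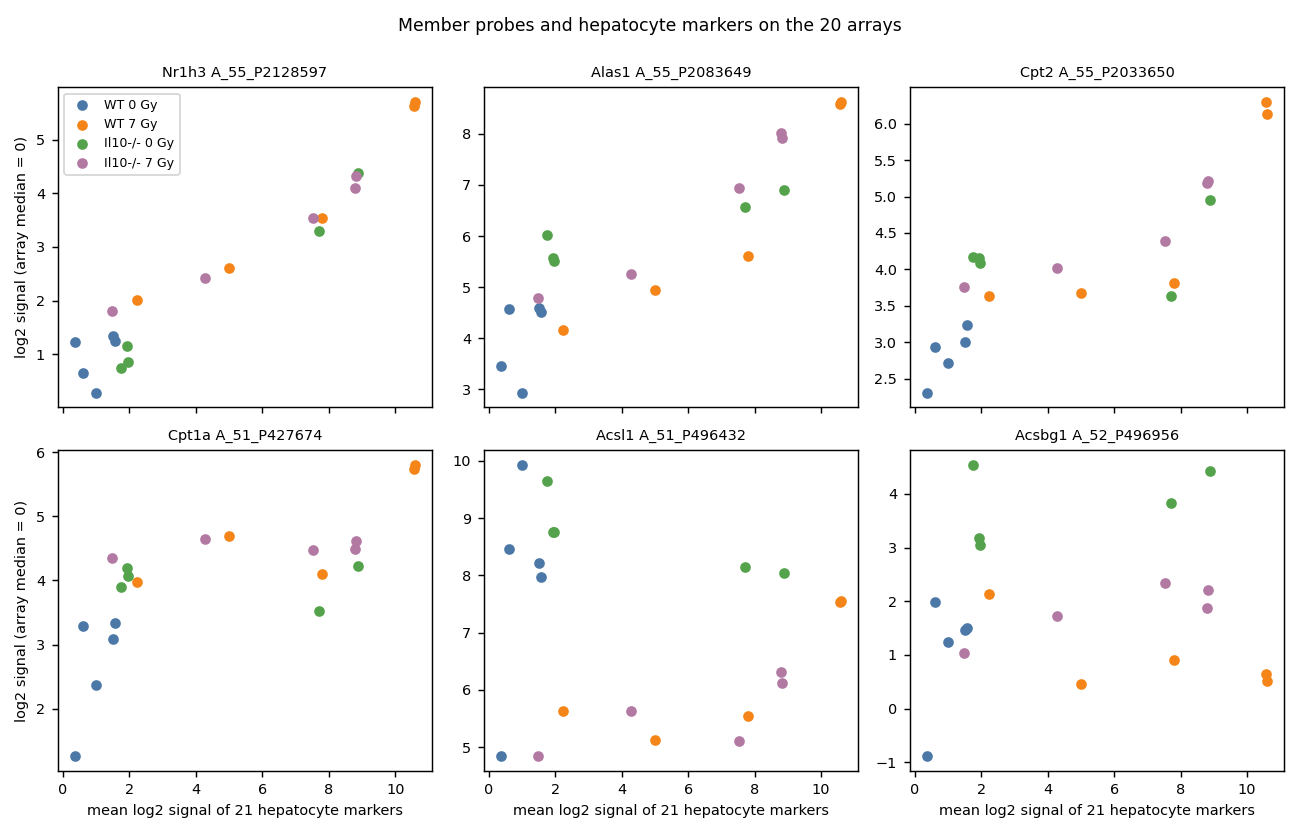
Log2 signal of 6 member probes (y axes) against the mean log2 signal of 21 hepatocyte markers (x axis) on the 20 arrays, coloured by group. Nr1h3 climbed along the hepatocyte axis within and across groups (r of deviations 0.96), the upstream Alas1 probe (0.85) and Cpt2 (0.70) did so less closely, and Acsbg1 (0.11) and Acsl1 (0.25) did not.

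Rxra, the common partner receptor, had one probe with usable signal, A_55_P2074331 (chr2:27618781-27618840). It read 2.20, 2.15, 3.14, 3.83 and -0.70 in unirradiated WT and 1.97, 1.82, 2.67, 2.47 and 2.00 in irradiated WT. Il10-/- arrays read 1.72, 1.59, 1.81, 1.43 and 1.77 at 0 Gy and 1.58, 1.52, 1.41, 1.73 and 0.93 at 7 Gy. After irradiation all 5 Il10-/- arrays lay below all 5 WT arrays. That difference was -0.75 ± 0.25 (95% interval -1.29 to -0.21), with an unadjusted p of 0.0112 and an adjusted p of 0.391 in limma, so it was not called. The 7 Gy differences from unirradiated mice were 0.06 ± 0.64 in WT and -0.23 ± 0.22 in Il10-/- mice (adjusted p = 0.960 and 0.481). The other probe, A_51_P307370 (chr2:27615316-27615375), was not well above background on any unirradiated array, was so on 3 irradiated WT arrays and 1 irradiated Il10-/- array, and failed the background filter. Its readings were 0.98, 1.25, -0.28, -1.78 and -0.51 in irradiated WT, and it is given without a test.

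Of the sterol exporters, neither was called in a tested comparison. Abca1 (A_52_P665675, chr4:53043944-53044003) loads cellular cholesterol onto lipid-poor apolipoprotein. It read 2.33, 2.60, 2.54, 1.14 and 0.16 in unirradiated WT and 2.71, 2.79, 1.56, 0.83 and 1.64 in irradiated WT, groups that overlapped. In Il10-/- mice it read 3.35, 3.51, 2.36, 3.72 and 2.23 before and 2.07, 2.24, 1.57, 2.55 and 1.77 after irradiation. The Il10-/- value was lower on 5 of 5 slides, by -0.995 ± 0.34 (95% interval -1.72 to -0.27), with an adjusted p of 0.0517 and an unadjusted p of 0.0115 that missed the 0.001 the call required. In WT the difference was 0.15 ± 0.54 (adjusted p = 0.885).

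Abcg1 (A_51_P222467, chr17:31252580-31252639) passes cholesterol to high-density lipoprotein. It read 4.46, 4.47, 4.96, 4.85 and 5.68 in irradiated WT and 5.35, 5.45, 5.19, 5.99 and 5.73 in irradiated Il10-/- mice. The latter was higher on 5 of 5 slides although the groups overlapped, by 0.66 ± 0.28 (unadjusted p = 0.0389, adjusted p = 0.434). Unirradiated arrays ranged from 3.52 to 5.34 in WT and from 5.03 to 5.95 in Il10-/- mice, and irradiation gave differences of 0.26 ± 0.46 and -0.12 ± 0.26 (adjusted p = 0.752 and 0.765). Over the 20 arrays Abcg1 deviated with the monocyte (r = 0.90), B cell (r = 0.78) and T cell (r = 0.59) lists, which came to 0.83, 0.75 and 0.37 without the 2 arrays farthest out, while the hepatocyte list gave r = -0.14. The NK cell, neutrophil and platelet lists gave r = 0.51, 0.46 and 0.45, and 0.53, 0.35 and 0.56 without those arrays.

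The 3 acyl-CoA synthetases, which activate fatty acids by joining them to coenzyme A, are described in turn. Acsbg1, of the bubblegum family (A_52_P496956, chr9:54453010-54453069), read 1.46, 1.51, 1.98, 1.24 and -0.88 in unirradiated WT and 3.05, 3.17, 3.82, 4.42 and 4.54 in unirradiated Il10-/- mice. These groups, from which the gene was chosen, did not overlap, and their means differed by 2.74 ± 0.51. Irradiated arrays read 0.65, 0.52, 0.91, 2.14 and 0.46 in WT and 1.87, 2.21, 1.04, 2.35 and 1.73 in Il10-/- mice. All 5 irradiated Il10-/- arrays lay below all 5 unirradiated ones, a difference of -1.96 ± 0.36 that shares the unirradiated arrays with the choice and was not tested. Between the irradiated groups, which the choice did not use, Acsbg1 was higher in Il10-/- mice on 5 of 5 slides by 0.90 ± 0.37 (95% interval 0.10 to 1.71), with an unadjusted p of 0.0303 and an adjusted p of 0.415. Deviations of Acsbg1 went with the T cell list (r = 0.72, rho = 0.54, r = 0.54 without the 2 arrays farthest out) and the NK cell list (r = 0.58, rho = 0.63, r = 0.75 without those arrays), and with the hepatocyte list at r = 0.11.

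Acsl1, the main long-chain synthetase of liver, muscle, fat and macrophages, fell after irradiation in Il10-/- mice. Its brighter probe A_51_P496432 (chr8:47621232-47621291) read 8.76, 8.76, 8.15, 8.04 and 9.65 in unirradiated and 6.32, 6.11, 4.84, 5.11 and 5.64 in irradiated Il10-/- mice. In WT it read 8.21, 7.97, 8.46, 9.93 and 4.85 and 7.54, 7.55, 5.55, 5.63 and 5.12. The Il10-/- groups did not overlap and the fall was seen on 5 of 5 slides, whereas in WT replicate 5 was already low without irradiation and the groups overlapped. The probe fell by 3.07 ± 0.37 in Il10-/- mice, or 8.38-fold (limma, adjusted p = 0.000221). The second probe, A_51_P463452 (chr8:47619774-47619833), fell by 2.38 ± 0.40 (adjusted p = 0.00199).

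In WT the Acsl1 differences were -1.61 ± 0.76 and -1.44 ± 0.60 and were not called (adjusted p = 0.175 and 0.123). The test of the difference between the genotypes' responses gave -1.46 ± 0.94 (95% interval -3.41 to 0.49) for the brighter probe, with an adjusted p of 0.704. The Acsl1 fall was therefore not shown to be particular to either genotype. Replicates 1 and 2 of irradiated WT, the arrays with the highest heart muscle means (6.02 and 5.96), also held the highest irradiated Acsl1 values (7.54 and 7.55), and deviations of the brighter and the second Acsl1 probe went with the heart list (r = 0.60 and 0.77) and the adipocyte list (r = 0.62 and 0.48). Of the adipocyte markers, Lep was well above background on 0, Plin1 on 3, Adipoq and Lipe on 8 and Cidec on 9 of 20 arrays. The B cell list gave r = -0.07 and -0.47. Without the 2 arrays farthest out, the B cell list gave -0.65 and -0.71, the heart list 0.49 and 0.65 and the adipocyte list 0.55 and 0.53. Blood cell lists went both ways after irradiation in Il10-/- mice. The medians of the B cell (1.91 against 5.25) and T cell (5.31 against 6.07) lists were lower, as were the neutrophil and erythroid lists. Those of the platelet (9.83 against 9.46) and NK cell (4.75 against 4.48) lists were higher, and the monocyte median was 5.01 against 5.09. All 11 neutrophil markers were well above background on every unirradiated Il10-/- array and 10 to 11 of them on the irradiated ones. The neutrophil list median was 6.12 against 8.31, but its markers differed unevenly and 0 of 11 were called. Differences were largest at Ltf (-2.91), Camp (-2.79), Ngp (-2.60) and Cd177 (-2.13), with a median of -1.27 over the list. They were smallest at Cxcr2 (0.008), Csf3r (-0.39) and S100a9 (-0.76). The 9 erythroid markers had a mean of 7.34 to 8.59 against 8.55 to 9.84. Across arrays the Acsl1 probes deviated with the neutrophil list at r = 0.12 and -0.09, and the part of blood cell numbers in the fall was not tested. With the hepatocyte and heart muscle means as covariates both probes were still called lower in Il10-/- mice.

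Acsl5 (A_52_P593037, no position in the array files), a synthetase of intestine and liver mitochondria, read 3.88, 4.16, 4.04, 3.01 and 2.60 in unirradiated WT and 5.15, 5.42, 4.13, 4.02 and 4.61 in irradiated WT. The irradiated value was the higher on 5 of 5 slides but the groups overlapped, and the difference of 1.13 ± 0.44 was not called (unadjusted p = 0.0198, adjusted p = 0.0942). Il10-/- arrays stayed between 3.81 and 4.50 without and between 4.02 and 4.51 with irradiation (0.15 ± 0.22, adjusted p = 0.656).

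The carnitine palmitoyltransferases carry activated fatty acids into mitochondria, Cpt1a at the outer membrane as the rate-limiting step and Cpt2 at the inner membrane. Cpt1a rose after irradiation in WT. Its probe A_51_P427674 (chr19:3385374-3385433), spotted 10 times on each array, read 3.08, 3.33, 3.28, 2.37 and 1.26 in unirradiated WT and 5.73, 5.80, 4.10, 3.97 and 4.70 in irradiated WT. Il10-/- arrays read 4.06, 4.20, 3.52, 4.22 and 3.90 without and 4.48, 4.62, 4.36, 4.48 and 4.64 with irradiation. In both genotypes the irradiated arrays lay above all unirradiated ones, by a wide margin on replicates 1 and 2 of WT and narrowly in Il10-/- mice. The WT rise was 2.19 ± 0.51, or 4.57-fold (limma, adjusted p = 0.0100), and 1.85 ± 0.45 at the dimmer probe A_55_P2057405 (chr19:3384060-3384119, adjusted p = 0.0128), which was well above background on 2 of 5 unirradiated WT arrays.

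In Il10-/- mice the Cpt1a differences of 0.53 ± 0.21 and 0.54 ± 0.28 were higher on 5 of 5 slides at both probes and were not called (adjusted p = 0.0904 and 0.181). The responses differed by -1.66 ± 0.57 (95% interval -2.83 to -0.48), with an unadjusted p of 0.0077 and an adjusted p of 0.688, so a genotype difference in the Cpt1a response was not shown at the rate used. With the hepatocyte and heart muscle covariates the WT differences were 0.89 ± 1.18 and -0.10 ± 1.05, not called. As said for Nr1h3, that fit called 5 of 18587 features and cannot separate dose from hepatocyte signal in WT. The unirradiated WT replicate 5 held the lowest Cpt1a value (1.26), and its 10 spots spread by an SD of 0.68.

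Cpt2 (A_55_P2033650, chr4:107576591-107576650), which holds the polyadenylation signal printed above, read 3.00, 3.24, 2.93, 2.71 and 2.31 in unirradiated WT and 4.09, 4.15, 3.64, 4.96 and 4.17 in unirradiated Il10-/- mice. Those groups, used for its choice, did not overlap and differed by 1.37 ± 0.38. With irradiation it read 6.30, 6.13, 3.81, 3.63 and 3.68 in WT and 5.19, 5.22, 3.76, 4.39 and 4.02 in Il10-/- mice. Replicates 1 and 2 were the highest in both irradiated groups, and the groups overlapped (-0.20 ± 0.60, adjusted p = 0.915). Relative to unirradiated mice the differences were 1.87 ± 0.55 in WT, where the groups did not overlap, and 0.31 ± 0.35 in Il10-/- mice, given without a test. Deviations of Cpt2 went with the heart muscle list (r = 0.80) and the hepatocyte list (r = 0.70). A second probe, A_55_P2074174 (chr4:107580325-107580384), was well above background on 3 of 20 arrays and failed the background filter.

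Alas1, the ubiquitous first enzyme of heme synthesis, had 2 bright probes that did not move together. The upstream probe A_55_P2083649 (chr9:106136284-106136343) read 4.60, 4.52, 4.58, 2.94 and 3.47 in unirradiated WT and 5.51, 5.56, 6.58, 6.91 and 6.01 in unirradiated Il10-/- mice. The downstream probe A_55_P1959985 (chr9:106135796-106135855) read 6.71, 6.58, 7.55, 8.44 and 4.04 and 5.53, 5.52, 6.61, 5.76 and 6.42 in the same groups. At the upstream probe the Il10-/- arrays all lay above the WT arrays (2.09 ± 0.44), while at the downstream probe the groups overlapped and the mean was lower (-0.69 ± 0.60). Which probe the choice of Alas1 rested on was not settled here, so neither of these differences was tested.

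In irradiated mice the upstream Alas1 probe read 8.58, 8.62, 5.60, 4.17 and 4.94 in WT and 8.01, 7.92, 4.80, 6.94 and 5.25 in Il10-/- mice. The downstream probe read 5.99, 5.81, 7.42, 7.30 and 6.53 in WT and 5.82, 5.58, 6.39, 6.18 and 6.14 in Il10-/- mice. Neither irradiated comparison was called, at 0.20 ± 0.97 upstream (adjusted p = 0.947) and -0.59 ± 0.35 downstream (lower on 5 of 5 slides, adjusted p = 0.525). Upstream minus downstream, the mean was -2.64 ± 1.82 (SD, n = 5) in unirradiated WT, -0.23 ± 2.74 in irradiated WT, 0.14 ± 0.59 in unirradiated Il10-/- and 0.56 ± 1.77 in irradiated Il10-/- mice. The upstream probe was the lower in all 5 unirradiated WT samples, and over all arrays the difference ran from -5.50 to 2.81. Deviations of the 2 probes had r = -0.30 and rho = -0.48 over 20 arrays, against r = 0.71 for the Cpt1a pair, 0.83 for the Acsl1 pair and 0.98 for the Nr1h3 pair. The upstream probe deviated with the hepatocyte list (r = 0.85), and the downstream one with the T cell (r = 0.69) and erythroid (r = 0.56) lists. The last 2 relations rested on few arrays, since without the 2 farthest out they were 0.38 and 0.33, below the NK cell list (0.52).

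**Figure D3:**
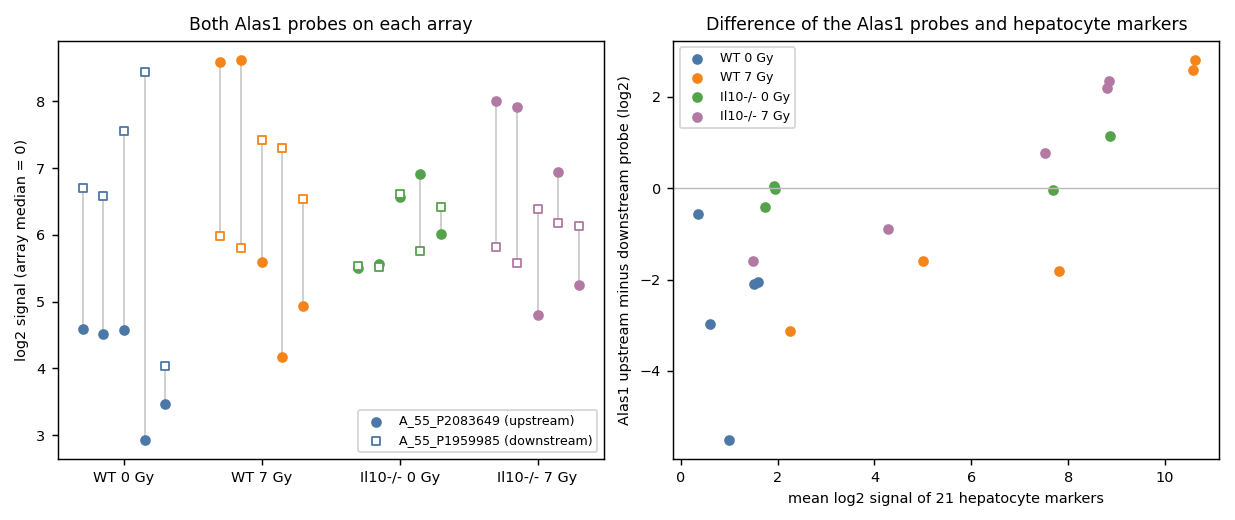
Left, log2 signal (y axis) of the upstream (filled) and downstream (open) Alas1 probes on each array by group, joined by a line. Right, upstream minus downstream (y axis, log2) against the mean of 21 hepatocyte markers (x axis), with a line at 0. Differences above 2 were on replicates 1 and 2 of both irradiated groups, where that mean was 8.79 to 10.61. Replicate 4 of unirradiated Il10-/- mice, with a mean of 8.87, gave 1.15. Replicate 3 of unirradiated Il10-/- mice (7.70) gave -0.04 and replicate 3 of irradiated WT (7.80) gave -1.81.

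In the unirradiated genotype comparison, given as a description, 4 probes of 4 genes did not overlap (Acsbg1, upstream Alas1, Cpt2 and Cpt1a A_51_P427674), against 4.54% of the 18587 tested features (3.98% with Il10-/- higher, 0.554% lower). The first 3 were chosen from this comparison, so their count follows from the choice and cannot be set against that share. Of the 18587 features 0.845% (157) were called there, all of them higher in Il10-/- mice. That number was 47 without unirradiated WT replicate 4, 43 (2 of them lower) with arrays scaled to their 75th percentile and 0 with the normexp background correction. Among the probes of the 3 chosen genes that did not overlap, the smallest difference was that of Cpt2 (1.37). Next in size among the members came Cpt1a (1.31) and Abca1 (1.28). The study picked its baseline genes by p and false discovery rate and not by size, so this order does not show the edge of the choice. The median of all 18587 features was itself 0.36 in this comparison, and -0.07 when arrays were scaled to their 75th percentile. Both Nr1h3 probes (1.14 ± 0.60 and 0.92 ± 0.68), the dimmer Cpt1a probe (0.85 ± 0.39), Abcg1 (1.04 ± 0.44), Acsl5 (0.61 ± 0.40), Acsl1 (0.79 ± 0.66 and 0.45 ± 0.46) and the brighter Rxra probe (-0.46 ± 0.61) overlapped between the groups.

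Between irradiated Il10-/- and irradiated WT mice, the comparison that used no array of the choice, 0 of the 14 member probes that passed the filters were called in limma, for which p had to lie below 0.001 and the Benjamini-Hochberg rate over all features under 10%, against 0.00538% (1) of 18587 features. The groups did not overlap for 1 of 14 probes (Rxra), against 2.96% of all features (2.25% higher, 0.716% lower). At an unadjusted p under 0.05 there were 3 member probes (Acsbg1, Rxra and Abcg1) and 2066 features. The median difference of all features was 0.08.

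For the radiation response of WT mice, 4 of the 10 tested probes were called, all higher, against 6.8% of all features (4.48% higher, 2.32% lower). These were both probes of Nr1h3 and both of Cpt1a, and they were also the 4 whose groups did not overlap, against 16.1% of all features (11.8% higher, 4.26% lower). Of all calls 65.9% were higher, and 51.1% with arrays scaled to their 75th percentile. Without unirradiated WT replicate 5 the balance turned, with 44.2% of calls higher (695 higher and 878 lower, against 832 and 431). The count fell to 0 without unirradiated WT replicate 4 or replicate 5, to 1 without irradiated WT replicate 1 or replicate 2, and to 1 (Nr1h3 A_55_P2128597) with replicates 1 and 2 averaged. It was 1 with 75th percentile scaling, where 1556 of 17179 features were called. It was 0 with the normexp background correction and 0 with the hepatocyte and heart muscle covariates, but these fits called few features of any kind (261 of 11433 and 5 of 18587), so the loss is not one of the members alone.

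For the radiation response of Il10-/- mice, 2 of 10 tested probes were called, both Acsl1 and both lower, against 9.16% of all features (3.29% higher, 5.87% lower). Groups did not overlap for 3 of 10 probes (both Acsl1 probes and Cpt1a A_51_P427674), against 17% of all features (6.13% higher, 10.9% lower). Of all calls 35.9% were higher, and 52% in the authors' series table. The 2 Acsl1 calls held without any one array and with replicates 1 and 2 averaged, and became 0 with the normexp background correction, under which 0 of 11433 features were called. In the test of the difference between the responses, 0 of 10 member probes and 0 of 18587 features were called, with 1301 features and both Cpt1a probes at an unadjusted p under 0.05. The comparisons share control arrays with the baseline comparison and, in the last test, with each other.

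**Figure D4:**
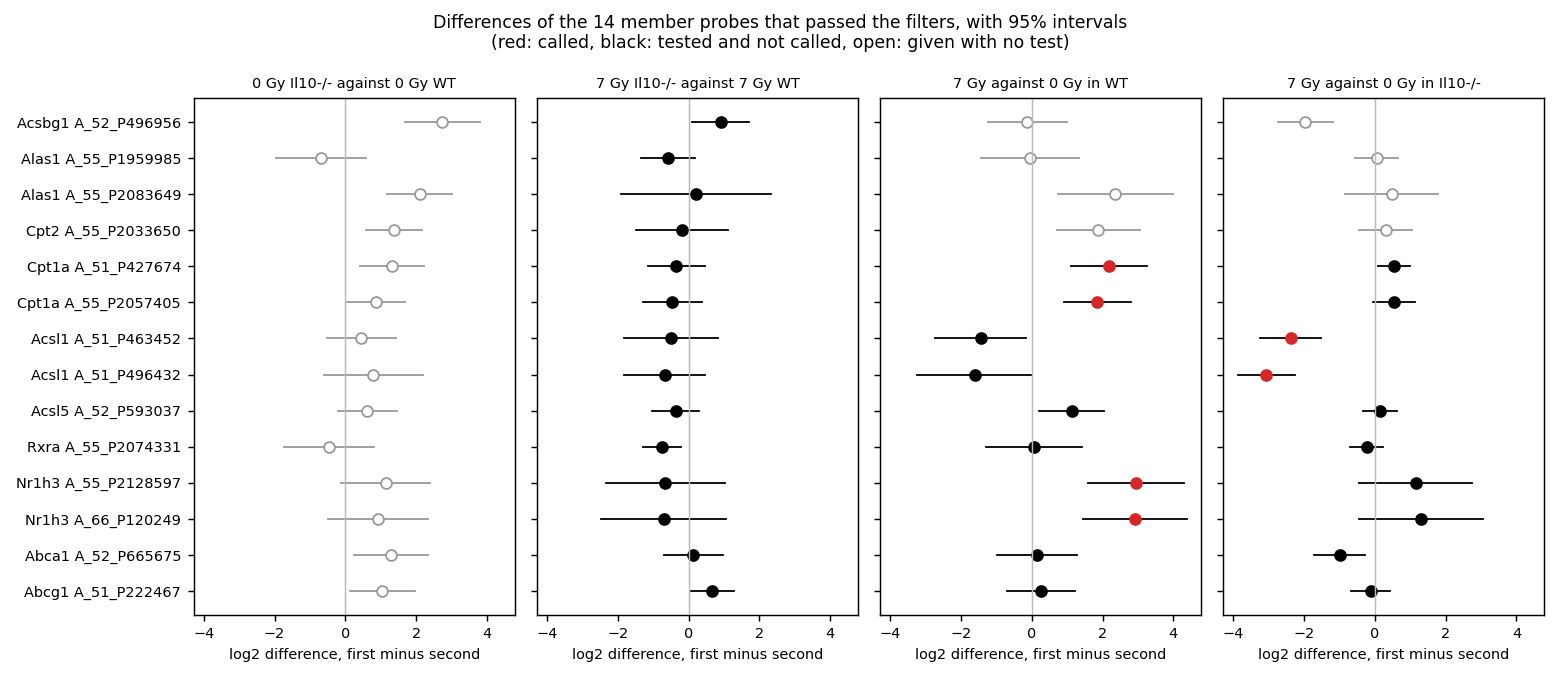
Log2 differences (x axes, first group minus second, with 95% intervals) of the 14 member probes that passed the filters, in 4 comparisons. Red points were called, black points were tested and not called, and open points are given with no test. Calls were limited to Nr1h3 and Cpt1a in WT (1.85 to 2.94) and Acsl1 in Il10-/- mice (-3.07 and -2.38).

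Other genes of the pathway were read from 8 lists, with the brightest tested probe per gene and 112 genes tested in all. After irradiation of WT mice 27 genes were called, all higher, or 24.1% against 6.8% of all features. LXR targets and sterol carriers gave 6 of 18 (median 1.52 against -0.02 for all features), led by Apoc1, an apolipoprotein of liver and macrophages (7.18 ± 1.18, adjusted p = 0.00123). Fatty acid uptake and activation gave 6 of 13, led by the liver fatty acid binding protein Fabp1 (7.33 ± 1.59, adjusted p = 0.00675), which was well above background on 2 of 5 unirradiated WT arrays. Mitochondrial shuttle and beta-oxidation genes gave 4 of 22, led by the dienoyl-CoA reductase Decr1 (3.10 ± 0.69, adjusted p = 0.00821), with 21 of 22 above the median of all features. PPAR targets gave 4 of 11.

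The upstream arm gave 3 of 25 in WT, among them the LPS-binding protein Lbp (4.53 ± 0.53, adjusted p = 0.000111) and its receptor Cd14 (2.79 ± 0.57, adjusted p = 0.00456), while Myd88 (0.31 ± 0.48), Irak1 (-0.58 ± 0.38), Traf6 (-0.53 ± 0.44) and Mapk8 (-0.22 ± 0.46) were not called. Detoxifying RXR targets gave 4 of 5, led by the glutathione transferase Gsta3 (6.28 ± 1.31, adjusted p = 0.00543), with Gstt1 (4.01 ± 0.63, adjusted p = 0.000947) and Cyp2b10 (2.04 ± 0.45, adjusted p = 0.00779). The study's pathway drawing rests on genes that differed between the unirradiated genotypes. Gstt1, Gsta3 and Cyp2b10 differed there by 4.67, 4.36 and 1.57. Tests against unirradiated mice, here and in Il10-/- mice below, share arrays with that choice. The p-values of drawn genes, and their part in the counts, are therefore not independent of it. Nuclear receptors and coregulators gave 0 of 10 and heme synthesis 0 of 8. Several of these genes, Fabp1, Apoc1 and Lbp among them, are abundant in liver, and the hepatocyte mean was higher on all 5 irradiated than on all 5 unirradiated WT arrays. In unirradiated WT, Gsta3 was well above background on 2 and Lbp on 3 of 5 arrays, so the size of these differences and that of Fabp1 rests partly on spots near background. Without unirradiated WT replicate 5, 12 of the 27 genes were still called higher and 2 others, Cd36 and the acetyl-CoA synthetase Acss1, were called lower, while Fabp1, Decr1 and Gsta3 were not called and beta-oxidation gave 0 of 22. With replicates 1 and 2 averaged, 18 of the 27 were called, and beta-oxidation and PPAR targets gave 1 each. With the hepatocyte and heart muscle covariates 0 were called, where 5 of 18587 features were.

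In Il10-/- mice 9 of the 112 genes were called after irradiation (8.04%, against 9.16% of all features, a share near the background), and 8 of these 9 with replicates 1 and 2 averaged. LXR targets gave 4 of 18, all higher, led by the macrophage scavenger protein Cd5l (2.60 ± 0.25, adjusted p = 4.4e-05). The fatty acid transporter Cd36 was the 1 called gene of 13 in uptake and activation and was lower (-2.47 ± 0.40, adjusted p = 0.00149). The lipid droplet protein Plin2 (1.60 ± 0.30, adjusted p = 0.00363) and Lbp (1.75 ± 0.31, adjusted p = 0.00265) were higher. Heme synthesis gave 2 of 8, both lower, with Urod falling by 2.53 ± 0.37 (adjusted p = 0.000841), beside an erythroid marker mean of 7.34 to 8.59 against 8.55 to 9.84 without irradiation. Beta-oxidation gave 0 of 22. Between the irradiated genotypes and in the test of the responses, 0 of 112 were called.

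**Figure D5:**
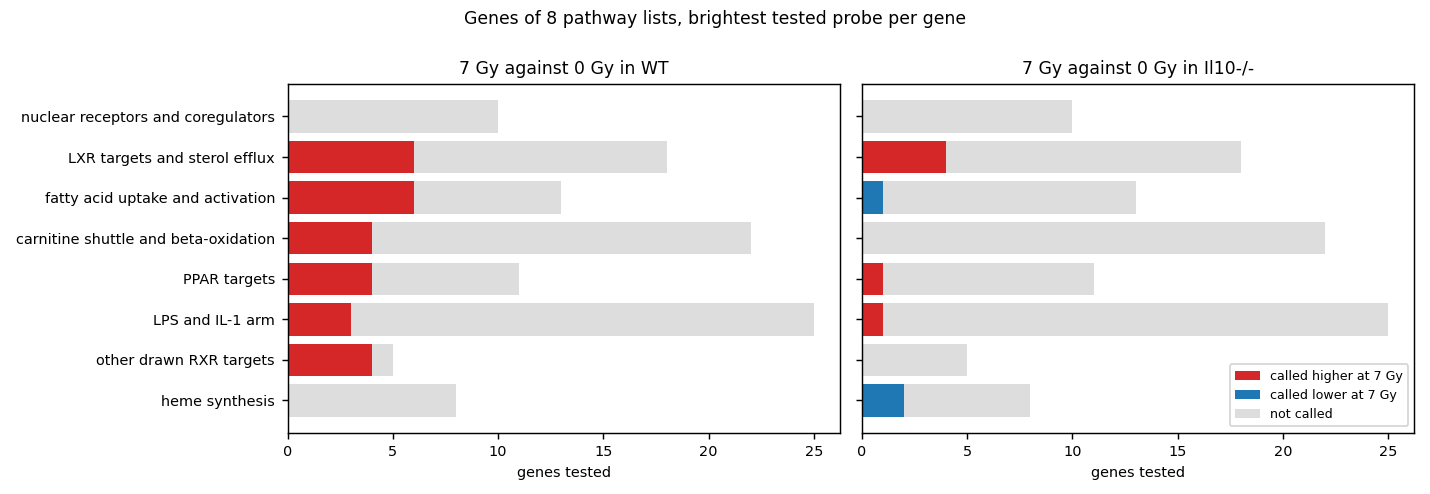
Number of genes tested (x axis, bars from 0) in each of 8 pathway lists after irradiation of WT (left) and Il10-/- mice (right), with genes called higher in red, lower in blue and not called in grey. WT calls were all higher (27 of 112), and Il10-/- calls were 6 higher and 3 lower.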

How the data were processed

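Total RNA of mouse whole blood was hybridized on 20 1-colour arrays on 5 slides, with 1 array of each group on each slide and the replicate number marking the slide. Per the labels and the authors' methods, images were read with Agilent Feature Extraction 10.7, while the file headers name 12.0.2.2. The deposited spot values are background-subtracted and detrended processed intensity on a linear scale, and the authors' deposited series table holds log2 values of the same arrays, used as an alternative. Positions are those of the array files (mm9).

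Here non-uniform outlier spots were dropped, spots of a probe averaged, log2 taken and each array's median over non-control probes subtracted. As in the study's methods, probes marked on 25% or more of arrays were left out, and at least 20% of arrays had to differ 1.5-fold or more from the probe's median, which left 18587 features. Of the 16 member probes 14 passed, and the 2 that failed were dim in unirradiated blood. Differences were tested with limma 3.58.1 (R 4.3.3) across all features, called at p below 0.001 and a Benjamini-Hochberg rate under 10%. The members and gene lists were chosen with earlier results of these data known. Named list genes are the called gene with the largest rise or fall in each list and those of the study's pathway drawing, except 1 called list gene that is counted in its list but not reported here by name. For each pathway list the text gives counts and medians without a set test. The study's methods describe 5 mice per group. Whether the closely alike replicates 1 and 2 came from separate animals was not settled here, and p-values measure the spread between arrays. The number of arrays limits the precision. The code was tested on simulated data.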

Additional observations from a re-analysis of the deposited data

Results flagged for a closer look

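In 64 groups of 5 arrays (16 probes in 4 groups), 3 held an array that stood apart from the other 4 by Dixon's ratio at the 95% level. Chance gives about 1 in 20 groups such an array, or about as many as were seen. Acsbg1 on replicate 5 of unirradiated WT, the array with the weakest signal, read -0.88 against 1.24 on the nearest array (ratio 0.74). Without that array, the unirradiated genotype difference of Acsbg1 was 2.25 ± 0.36. Acsbg1 on replicate 4 of irradiated WT read 2.14 against 0.91 on the nearest array (ratio 0.73). The dim Rxra probe A_51_P307370 on replicate 2 of unirradiated WT read -2.19 against -1.42 (ratio 0.74), with none of the 5 spots well above background.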

How the results depend on the processing

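No member probe was called between the irradiated genotypes or in the difference between the responses under any alternative run for it (other scalings, background corrections and filters, a rate below 5% alone, all groups in 1 fit for the irradiated genotypes only, the slide as a block, replicates 1 and 2 averaged, tissue covariates, each array left out), and leaving out 1 array gave 0 to 0. In irradiated Il10-/- mice the 2 Acsl1 calls stood under every alternative (2 to 2 with 1 array left out) except the normexp background correction, which gave 0 and called 0 of 11433 features. In WT the 4 calls became 1 with 75th percentile scaling, 1 with reference array scaling, 1 with the authors' series table, 2 with quantile normalization, 0 with normexp, 1 with replicates 1 and 2 averaged and 0 with the hepatocyte and heart muscle covariates. With 1 array left out they ranged from 0 to 4. The cause of these changes was not tested, but averaging replicates leaves fewer samples. Differences stayed positive at Nr1h3 (2.46 to 3.41) and Cpt1a (1.61 to 2.41) with 1 array left out. The genes of the 8 pathway lists called in WT went from 27, all higher, to 0 with the covariates (5 of 18587 features called), to 18 with replicates 1 and 2 averaged and to 14 without unirradiated WT replicate 5 (12 of the 27, and 2 others called lower), and between irradiated genotypes from 0 to 2 with the covariates. These list alternatives and the covariates on lists were chosen after seeing the data.

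Signs turned only in differences that were not called, apart from Cpt1a and Nr1h3 with the covariates. With normexp, irradiated Il10-/- against irradiated WT gave -0.63 for upstream Alas1, -0.23 for Abca1 and -0.16 for Abcg1, and irradiation of Il10-/- mice gave -0.16 for Acsl5. With replicates 1 and 2 averaged, Cpt2 gave 0.0088 between irradiated genotypes. For irradiated WT, Rxra gave -0.16 and Abca1 -0.076 with the 75th percentile, Rxra -0.045 with the reference array, and Rxra -0.023 and Abca1 -0.10 with the series table. With the covariates, WT gave -0.10 for Cpt1a A_55_P2057405, -0.046 for Acsl5, -0.067 for Nr1h3 A_66_P120249, -1.69 for Abca1 and -0.61 for Abcg1. The difference between the responses then was 0.055 and 0.63 for the Nr1h3 probes. For irradiated Il10-/- mice, Abcg1 gave 0.025 with the reference array, 0.021 with the series table and 0.11 with the covariates. With 1 array left out, ranges that crossed 0 were -0.35 to 0.76 (upstream Alas1), -0.47 to 0.20 (Cpt2) and -0.13 to 0.36 (Abca1) between irradiated genotypes. In WT they were -0.64 to 0.49 (Rxra), -0.25 to 0.42 (Abca1) and -0.011 to 0.44 (Abcg1), and for the difference between the responses -0.72 to 0.41 (Rxra).

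Replicate numbers mark the slide, and arrays of the same number did not all deviate together (in no pair of groups were all 5 correlations above 0.1, means from -0.13 to 0.41). With the replicate block, 4 probes were called in WT, 2 in Il10-/- mice, 0 between irradiated genotypes and 0 in the difference between the responses. Probes near background, Rxra A_51_P307370 and Cpt2 A_55_P2074174, could not be tested at this signal.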

Other observations

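For each member, the 3 genes whose deviations from the group means over 20 arrays were most like those of its brightest tested probe were listed, among tested features and as a description of arrays that share preparation and scaling. Nr1h3 was most like Retsat (r = 0.97), a retinol saturase, Pex11g (r = 0.97), a peroxisome protein, and Igf1 (r = 0.96). Cpt2 was most like Entpd5 (r = 0.97) and Got2 (r = 0.96), the mitochondrial aspartate aminotransferase, and Acsl1 like Uqcr10 (r = 0.97) of the respiratory chain, Acbd5 (r = 0.95) and Ogdh (r = 0.93) of the citric acid cycle. Acsbg1 was most like Ly6g5b (r = 0.95), Tnfrsf25 (r = 0.93), a death receptor of T cells, and Ubxn11 (r = 0.88). Abcg1 was most like Rbm5, Fam168b and Eif2ak3 (each r = 0.97), and Abca1 like Wdr46 (r = 0.96), Hook3 and Park7 (each r = 0.95). Cpt1a was most like Pcyox1, Grsf1 and Ammecr1l (each r = 0.96), and Acsl5 like Psmc4 and Tob2 (each r = 0.97) and P4hb (r = 0.96). The downstream Alas1 probe was most like Tmem116 and Jsrp1 (each r = 0.99), and Rxra like 1810053B23Rik (r = 0.98) and Tubb2b (r = 0.97), although without the 2 arrays farthest out these 2 fell to 0.86 each.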
